A study of Mus musculus with 18 samples.

Results

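The 6 members of the AAA-ATPase ring of the 19S proteasome regulatory particle, Psmc1 to Psmc6, were found by gene symbol among the 23420 rows of the count table, and all 6 were among the 11762 genes that passed the expression filter. The cells were NIH-3T3, an established line of mouse embryonic fibroblasts, either wild type (WT) or with the transcription factor Nrf1 (gene symbol Nfe2l1) knocked out by CRISPR/Cas9 (Nrf1 KO). WT and Nrf1 KO cells were each given DMSO, the vehicle, or 200 nM carfilzomib (CFZ), an irreversible proteasome inhibitor, for 6 h or 24 h, and 3 libraries were sequenced for each of these 6 groups. No time is given for DMSO, so the same DMSO libraries served as the control for both times. Each genotype was a single cell line, so that genotype and line cannot be told apart, and the study describes the libraries of a group as biological replicates of that line. Total counts ranged from 8333148 to 23917081 per library, and the members were counted between 758 and 9338 times, so none of them was near the floor.

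The ring sits at the base of the regulatory particle, where it uses ATP to unfold ubiquitinated proteins and thread them into the 20S core. It is built from 6 related subunits that are each encoded by their own gene and are each present once per ring, and it is assembled from pairs of subunits held by dedicated chaperones. Psmc2 (Rpt1) and Psmc1 (Rpt2) form the pair bound by Psmd5, Psmc4 (Rpt3) and Psmc5 (Rpt6) the pair bound by Psmd10, and Psmc6 (Rpt4) and Psmc3 (Rpt5) the pair bound by Psmd9. The tails of Psmc1, Psmc4 and Psmc3 carry the motif that docks into the core and opens its gate. When the proteasome is inhibited, Nrf1 leaves the membrane of the endoplasmic reticulum, is cleaved and binds antioxidant response elements (ARE) to raise transcription of proteasome genes.

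The members lie on different chromosomes in the GENCODE M21 annotation of GRCm38, which need not be the build used for counting. Psmc1 (ENSMUSG00000021178.9) is at chr12:100110154-100123405, Psmc2 (ENSMUSG00000028932.7) at chr5:21785283-21803787 and Psmc3 (ENSMUSG00000002102.15) at chr2:91054009-91066369, all on the plus strand. Psmc4 (ENSMUSG00000030603.16) is on the minus strand at chr7:28041707-28050101. Psmc5 (ENSMUSG00000020708.12) is at chr11:106256154-106263120 and Psmc6 (ENSMUSG00000021832.8) at chr14:45329788-45349705, both on the plus strand. Slc39a13, which runs the other way, covers 8.25% of the exonic bases of Psmc3, and whether the counting used strand is not given in the sources used here. Of all 100-base stretches of the principal transcripts, 3.75% of those of Psmc1 also occur in AC110212.1 or Gm9575 and none of those of the other 5 members do.

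RefSeq promoter windows (GRCm38.p6, 250 bases before to 50 after the start) were matched for 5 of the 6 members, with 2 windows for Psmc2 and none for Psmc3. The upstream bases of 3 of them are printed here because these genes had the smallest response to CFZ in WT cells (Psmc1), the largest in WT cells (Psmc4) and the largest in Nrf1 KO cells (Psmc6). Each is written 5′ to 3′ on the strand of the gene, and stops before the outermost annotated start. Capitals mark matches to the core of the ARE (TGACNNNGC), to CCAAT, or to ACTTCCG, a core bound by ETS factors, on either strand.
Psmc1, chr12:100109952-100110153, plus strand: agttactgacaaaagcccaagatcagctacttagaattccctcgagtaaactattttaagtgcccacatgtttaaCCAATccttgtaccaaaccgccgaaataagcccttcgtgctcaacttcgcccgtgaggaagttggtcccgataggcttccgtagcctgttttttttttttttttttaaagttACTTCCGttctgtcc
Psmc4, chr7:28050102-28050342, minus strand: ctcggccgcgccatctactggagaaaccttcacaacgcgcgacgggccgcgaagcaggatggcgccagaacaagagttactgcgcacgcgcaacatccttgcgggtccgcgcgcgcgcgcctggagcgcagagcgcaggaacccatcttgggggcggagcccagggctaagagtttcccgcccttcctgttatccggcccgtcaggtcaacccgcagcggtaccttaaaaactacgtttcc
Psmc6, chr14:45329574-45329787, plus strand: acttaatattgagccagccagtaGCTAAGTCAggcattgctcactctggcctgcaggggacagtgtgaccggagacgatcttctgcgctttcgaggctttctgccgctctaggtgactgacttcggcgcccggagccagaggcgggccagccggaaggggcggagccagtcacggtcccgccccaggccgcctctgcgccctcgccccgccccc

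The ARE core was found in 1 of the 6 member windows, that of Psmc6, on the minus strand with its first base 227 bases before the start, where the letters read GCTAAGTCA on the plus strand. It occurs in 12.4% of the 32851 mouse promoter windows of this length. CCAAT was found in the window of Psmc1, 175 bases before the start, and in the first of those of Psmc2, 28 bases before it, and occurs in 37.4% of all windows. ACTTCCG, which was added after the windows had been read, was found at 2 places in Psmc1 (63 and 29 bases before the start, the latter past the stretch shown), once in each window of Psmc2 (85 and 25 bases before) and once in Psmc4 (11 bases after), against 6.42% of all windows. ACTTCCG was not found in the windows of Psmc5 and Psmc6. Because it was chosen from these same windows, the share over all windows does not test whether it is enriched here. No match overlapped another.

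Nfe2l1, the targeted gene, was checked first in every library. Levels are counts per 1000000 (CPM), with library sizes scaled by the TMM method. In WT cells Nfe2l1 was between 437 and 457 CPM in DMSO, 628 and 650 at 6 h and 555 and 580 at 24 h, and in Nrf1 KO cells between 174 and 185, 413 and 427, and 201 and 210. Every Nrf1 KO library was below every WT library. Reads of Nfe2l1 were still counted in Nrf1 KO cells, and counts over a whole gene do not show an edit within it. Which part of the transcript these reads came from, and why they remained, was not tested. Of 10 fibroblast marker genes, 9 exceeded 1 CPM in at least 1 library (Lum reached 0.254 at most). The summed level of the 10 fibroblast markers was 31648 to 34318 CPM in WT DMSO, 27432 to 29856 at 6 h and 7970 to 8279 at 24 h, and in Nrf1 KO cells it was 25430 to 31900, 27951 to 31641 and 10944 to 13051. Thus their sum was lower at 24 h in both lines. In WT cells at 24 h all 9 markers tested were called lower, where 40.5% of all genes were called lower. In Nrf1 KO cells at 24 h 7 markers were lower and 1 (Pdgfra) higher, where 41.1% of all genes were called lower and 44.4% higher. Their part in the 24 h values of the ring was not tested. In these bulk samples, fewer cells of a type and less RNA per cell cannot be told apart. The 14 markers of other cell types summed to between 1.82 and 15.3 CPM, with Epcam and Cd3e at 0 in all 18 libraries. Of the 14, 5 exceeded 1 CPM in at least 1 library: Cdh1, which reached the highest level, Cd68, Cdh5, Ptprc and Myh3. Their sum was higher in Nrf1 KO than in WT cells in each treatment, in DMSO at 13.3 to 15.3 against 6.91 to 7.76 CPM. Ptprc, which ran from 0 to 1.33 CPM, was higher in Nrf1 KO DMSO by 6.92 log2. At levels so near the floor the size of this log2 value has little meaning. The cause of this difference between the lines was not tested.

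CFZ raised all 6 members in the WT cells at both times, each at least 2-fold. At 6 h the median log2 fold change of the members was 1.45, against -0.02 over all genes tested. At 24 h these medians were 1.49 and 0.02. Psmc4 rose most, 3.18-fold at 6 h and 4.10-fold at 24 h, and Psmc1 rose least, 2.18-fold and 2.10-fold. The fold of Psmc1 lay near the 2-fold mark and fell under it with library size alone (0.99 log2 at 6 h and 0.97 at 24 h) and at 24 h with upper-quartile scaling (0.93 log2), which left 5 members at 2-fold or more. Across all genes tested, 35.6% were called higher at 6 h and 3.98% were called higher by at least 2-fold, and at 24 h these shares were 43.2% and 10.5%. A gene was called when edgeR's quasi-likelihood test gave it a p-value under 0.05 after Benjamini-Hochberg adjustment. The largest adjusted p among the members was 3.04e-23 at 6 h and 3.22e-24 at 24 h.

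**Figure D1:**
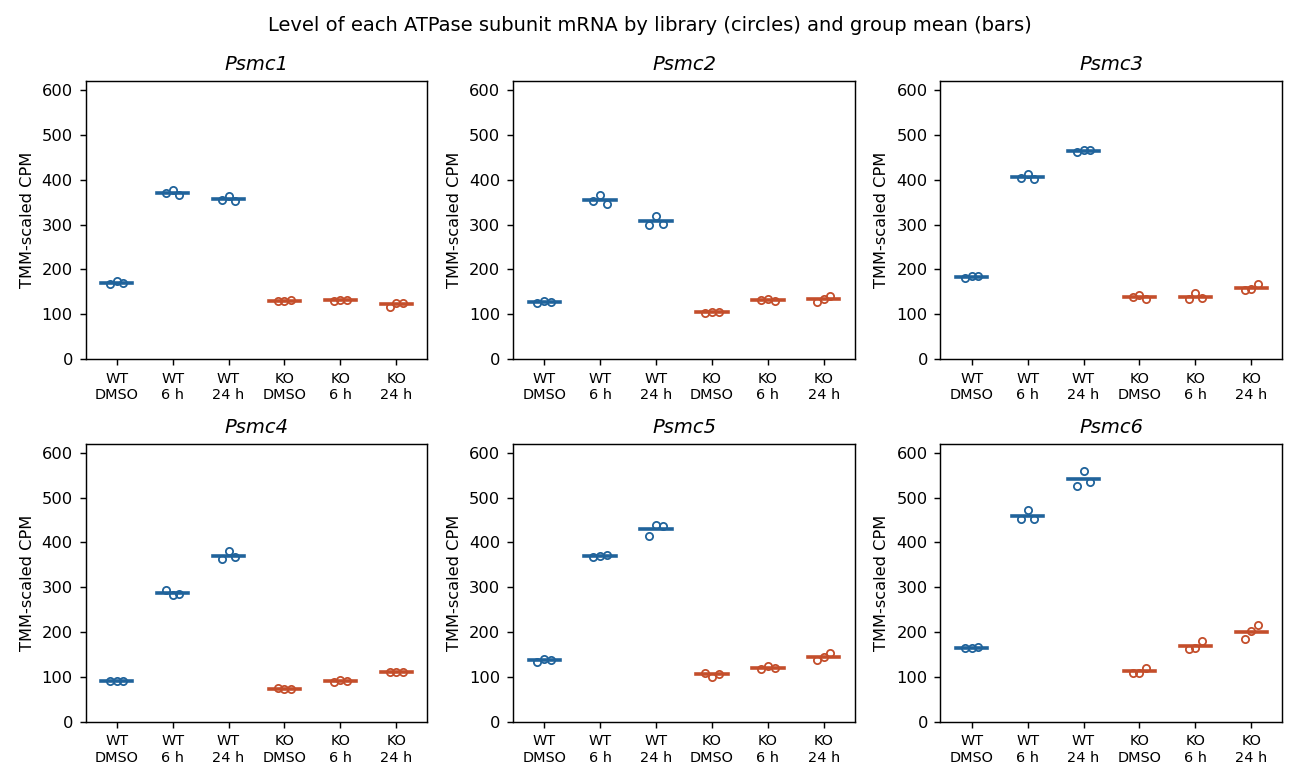
Level of each ring subunit mRNA in TMM-scaled CPM (vertical axis) in the 6 groups (horizontal axis), with WT in blue and Nrf1 KO in orange, circles for the 3 libraries and bars for the group mean. In each panel the WT libraries with CFZ sit above all other libraries, up to 560 CPM for Psmc6, while the Nrf1 KO libraries stay at or below 216 CPM.

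Psmc2 and Psmc1, the pair held by Psmd5, were not called higher at 24 h than at 6 h in either line, unlike the other members, but they also differed from each other. Psmc2 was at 126, 129 and 128 CPM in the 3 WT DMSO libraries, 354, 367 and 346 at 6 h, and 299, 320 and 302 at 24 h. The WT libraries of 24 h thus lay below those of 6 h without overlap. Psmc2 was the member called lower between the times, by 0.21 ± 0.03 on the log2 scale (SE, n = 3, adjusted p = 2.74e-06 in edgeR's quasi-likelihood test). In Nrf1 KO cells Psmc2 was at 102, 106 and 106 CPM in DMSO, 132, 135 and 130 at 6 h, and 128, 134 and 141 at 24 h, where the libraries of both CFZ times overlapped. Psmc1 in WT cells was at 168, 173 and 169 CPM in DMSO, 371, 377 and 366 at 6 h, and 355, 365 and 353 at 24 h. Its WT libraries of 24 h also lay below those of 6 h without overlap. The difference was -0.05 ± 0.03 on the log2 scale and did not pass the test (adjusted p = 0.115, edgeR). In some of the alternatives given below Psmc1 did pass as lower. For Psmc1 the Nrf1 KO libraries were at 128, 128 and 131 CPM in DMSO, 131, 131 and 132 at 6 h, and 117, 125 and 125 at 24 h. The lowest values of Psmc1 in the study were therefore those of Nrf1 KO cells after 24 h of CFZ, and they did not overlap with Nrf1 KO DMSO.

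For Psmc4 and Psmc5, the pair held by Psmd10, levels in WT cells were higher at 24 h than at 6 h. Psmc4 was at 90.4, 89.8 and 91.1 CPM in WT DMSO, 293, 282 and 286 at 6 h, and 364, 381 and 367 at 24 h. The rise from 6 h to 24 h was 1.29-fold (0.37 ± 0.03 log2, adjusted p = 1.98e-12, edgeR). The Nrf1 KO libraries of Psmc4 were at 75.2, 72.9 and 72.6 CPM in DMSO, 88.4, 93.4 and 90.9 at 6 h, and 112, 112 and 110 at 24 h, so that each time was above the one before without overlap. Psmc5 was at 138 ± 3.22 CPM in WT DMSO, 370 ± 2.75 at 6 h and 430 ± 14.0 at 24 h, and at 106 ± 5.28, 121 ± 3.24 and 145 ± 8.33 in Nrf1 KO cells (SD, n = 3). Psmc5 thus rose at both steps in both lines, from 6 h to 24 h by 1.16-fold in WT and 1.20-fold in Nrf1 KO cells.

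Psmc6 and Psmc3, the pair held by Psmd9, both rose in WT cells at each step. Psmc6 was at 165, 165 and 166 CPM in WT DMSO, 452, 472 and 452 at 6 h, and 527, 560 and 534 at 24 h. The Nrf1 KO libraries were at 109, 109 and 120 CPM in DMSO, 162, 164 and 181 at 6 h, and 185, 201 and 216 at 24 h. In both lines the libraries of Psmc6 were higher at each time than at the one before, without overlap. Psmc3 was at 183 ± 2.32 CPM in WT DMSO, 406 ± 6.33 at 6 h and 465 ± 3.20 at 24 h, and at 138 ± 3.45, 139 ± 6.74 and 159 ± 7.65 in Nrf1 KO cells (SD, n = 3). The Nrf1 KO libraries of DMSO and 6 h overlapped for Psmc3 and did not for Psmc6.

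From 6 h to 24 h of CFZ, 4 members rose in WT cells (Psmc3, Psmc4, Psmc5 and Psmc6) and 1 fell (Psmc2), where 36.9% of all genes were called higher and 35.4% lower. In Nrf1 KO cells the same 4 members rose, Psmc1 fell by 0.10 on the log2 scale (adjusted p = 0.0151, edgeR) and Psmc2 was at 0.02 ± 0.04 log2, which did not pass the test (shares over all genes 38.7% higher and 38.3% lower). The fall of Psmc1 was not called without replicate 1 of Nrf1 KO 24 h, when it was -0.08 (adjusted p = 0.0566, edgeR). In WT cells Psmc1 also passed as lower at 24 h than at 6 h without any 1 of the 3 WT 6 h libraries, with log2 fold changes of -0.10, -0.08 and -0.10 without replicates 1, 2 and 3.

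The response to CFZ in Nrf1 KO cells was smaller, and no member reached 2-fold. At 6 h, 4 members rose, led by Psmc6 (1.49-fold) and Psmc2 (1.27-fold), then Psmc4 (1.24-fold) and Psmc5 (1.14-fold), where 34.5% of all genes were called higher. Psmc1 and Psmc3 were at 0.02 ± 0.04 and 0.01 ± 0.04 log2 (adjusted p = 0.652 and 0.849, edgeR). At 24 h, 5 members rose, where 44.4% of all genes were called higher. Psmc6 was at 1.78-fold, Psmc4 at 1.52-fold, Psmc5 at 1.38-fold, Psmc2 at 1.28-fold and Psmc3 at 1.15-fold. Psmc1 fell by 0.08 ± 0.03 on the log2 scale (adjusted p = 0.0352, edgeR), where 41.1% of all genes were called lower, and this call was lost without replicate 3 of Nrf1 KO DMSO (adjusted p = 0.0957, edgeR). The median of the members was 0.25 at 6 h and 0.41 at 24 h, against -0.01 and 0.03 over all genes. When counts were scaled by library size alone, the median of all genes at 6 h moved to -0.12 in Nrf1 KO cells, and 3 members were called higher (not Psmc5) and 2 (Psmc1 and Psmc3) lower, in place of 4 and 0. Psmc1 was then at -0.09 and Psmc3 at -0.10, near that median of all genes.

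**Figure D2:**
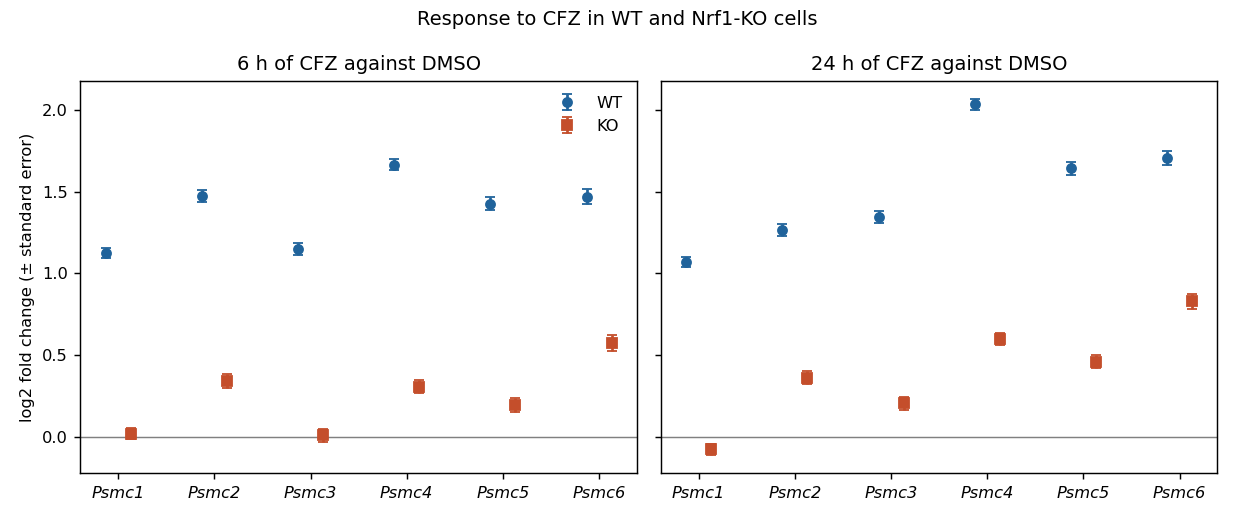
Log2 fold change of each ring subunit mRNA (vertical axis, ± SE) after 6 h (left) and 24 h (right) of CFZ against DMSO in WT (blue circles) and Nrf1 KO cells (orange squares). The WT values lie between 1.07 and 2.04 and the Nrf1 KO values between -0.08 and 0.83, with no overlap.

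The difference between the lines was tested by the interaction of genotype and CFZ, that is, the log2 response of Nrf1 KO cells minus that of WT cells. It was negative and passed the test for all 6 members at both times. At 6 h it ran from -0.90 ± 0.07 for Psmc6 to -1.36 ± 0.05 for Psmc4, with 5 members beyond 2-fold, and 18.4% of all genes were called lower by this test and 1.57% by at least 2-fold. At 24 h it ran from -0.88 ± 0.06 for Psmc6 to -1.44 ± 0.05 for Psmc4, with 4 members beyond 2-fold (Psmc1, Psmc3, Psmc4 and Psmc5), against 30.0% and 4.53% of all genes. The largest adjusted p among the 12 tests was 1.40e-12 (edgeR). Psmc2 was at -1.14 ± 0.05 at 6 h and -0.91 ± 0.05 at 24 h. Whether the lines also differed in the step from 6 h to 24 h was tested after these values had been seen. Psmc2 was the member called, at 0.23 ± 0.05 (adjusted p = 0.000615, edgeR), where 20.7% of all genes were called higher, and the other 5 members lay between -0.08 and 0.05 and did not pass the test.

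Already in DMSO all 6 members were lower in Nrf1 KO than in WT cells, by 1.22-fold for Psmc2 to 1.46-fold for Psmc6, and none by 2-fold, where 29.1% of all genes were called lower. After 6 h of CFZ the 6 members were lower by 2.68-fold (Psmc2) to 3.16-fold (Psmc4), where 30.8% of all genes were called lower and 3.00% by at least 2-fold. After 24 h they were lower by 2.29-fold (Psmc2) to 3.33-fold (Psmc4), against 36.4% and 5.53%. The largest adjusted p was 1.72e-07 in DMSO, 1.79e-22 at 6 h and 3.81e-23 at 24 h (edgeR). In none of these comparisons did the libraries of the lines overlap for a member. The share of all genes without such overlap was not counted.

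Nrf1 KO cells after 24 h of CFZ were also set against WT cells in DMSO, a comparison in which genotype and treatment both differ. Psmc4 (1.23-fold) and Psmc6 (1.21-fold) were higher in the treated Nrf1 KO cells, where 43.9% of all genes were called higher. Psmc1 (1.39-fold) and Psmc3 (1.15-fold) were lower, where 42.4% were called lower. Psmc2 and Psmc5 were at 0.07 ± 0.04 and 0.08 ± 0.04 log2 and did not pass the test (adjusted p = 0.0721 and 0.0711, edgeR), although both did without replicate 1 of Nrf1 KO 24 h (0.09 and 0.10 log2).

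Ordered by level, WT cells with CFZ held the top places for every member. For Psmc3 to Psmc6 24 h lay above 6 h, and for Psmc1 and Psmc2 6 h lay above 24 h. The libraries of these groups did not overlap, but how many of all genes had no such overlap was not counted. The place of WT DMSO differed. It came next for Psmc1 and Psmc3, above every Nrf1 KO group. For Psmc5 it came after Nrf1 KO 24 h, with which its libraries overlapped, and for Psmc2, Psmc4 and Psmc6 it came after both Nrf1 KO groups with CFZ. For Psmc4 and Psmc6 the libraries of WT DMSO overlapped with those of Nrf1 KO 6 h.

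To compare levels between members, CPM were divided by the length of the principal transcript, from 1316 bases for Psmc5 to 2234 for Psmc6. The sum over the ring was 532 ± 6.04 CPM per kilobase in WT DMSO, 1367 ± 15.6 at 6 h and 1506 ± 34.1 at 24 h (SD, n = 3). In Nrf1 KO cells it was 406 ± 3.89, 472 ± 9.97 and 527 ± 23.2 CPM per kilobase. The 3 Nrf1 KO libraries of 24 h, from 504 to 550, spanned the range of WT DMSO, from 525 to 537. The summed message for the ring in Nrf1 KO cells after 24 h of CFZ was therefore near that of untreated WT cells, with another split among the members.

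In DMSO the level per kilobase was highest for Psmc3 in both lines, at 112 ± 1.42 CPM per kilobase in WT and 84.6 ± 2.11 in Nrf1 KO cells, and lowest for Psmc4 in WT (62.8 ± 0.464). In Nrf1 KO DMSO the lowest were Psmc6 (50.4 ± 2.73) and Psmc4 (51.1 ± 0.994), whose ranges overlapped. After CFZ the highest was Psmc5 at both times in both lines, with 326 ± 10.6 CPM per kilobase in WT cells at 24 h. The ratio of the highest to the lowest member was 1.78 in WT DMSO, 1.44 at 6 h and 1.90 at 24 h. The ratios for Nrf1 KO cells were 1.71, 1.45 and 1.48. The order depends on the length: with all exonic bases of each gene, Psmc5 was highest and Psmc2 lowest in all 6 groups. The ratio of the highest to the lowest member depends on it too, as other members can take these places. For a given pair of members, a difference between groups in their log2 ratio does not depend on it.

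Proportions were therefore compared as the log2 ratio of each member, per base, to the mean of the 6 members in the same library, a measure that is free of library scaling. All 6 proportions were called changed after 24 h of CFZ in a two-sided exact permutation test stratified by line (adjusted over 18 tests, p = 0.009 to 0.015). This test pooled the lines, and in Nrf1 KO cells the libraries of 24 h and DMSO overlapped for Psmc2 and Psmc5. Because the mean contains every member, a change of a member shifts the ratios of the others the opposite way. The calls of the 6 members are therefore not independent, in this and the following comparisons of proportions. Psmc1 lost most, by -0.44 in WT and -0.47 in Nrf1 KO cells, and went from 20.1% to 14.9% of the ring in WT and from 20.02% to 14.6% in Nrf1 KO cells. Psmc3 was at -0.17 and -0.19. Psmc4 was at 0.52 in WT and 0.20 in Nrf1 KO cells, while Psmc6 was at 0.20 and 0.44, so the member that gained most was Psmc4 in WT and Psmc6 in Nrf1 KO cells. Psmc2 was at -0.25 and -0.04, and Psmc5 at 0.13 and 0.06. The difference between the lines in these shifts was not tested.

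At 6 h the proportions of 5 members had changed (exact permutation test, adjusted p = 0.009, from the smallest p of 0.005 that this design can give). Psmc1 was at -0.26 in WT and -0.22 in Nrf1 KO cells, and Psmc3 at -0.24 in both. Psmc2 was at 0.09 and 0.10, Psmc4 at 0.28 and 0.06, and Psmc6 at 0.08 and 0.34. Psmc5 was at 0.04 and -0.05 and did not pass the test (adjusted p = 0.941, exact permutation test). In WT cells the gain of Psmc2 at 6 h was thus followed by a loss at 24 h. In Nrf1 KO cells its shift at 24 h was -0.04, and its ratios at 24 h (-0.217 to -0.195) overlapped with those of DMSO (-0.204 to -0.142).

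**Figure D3:**
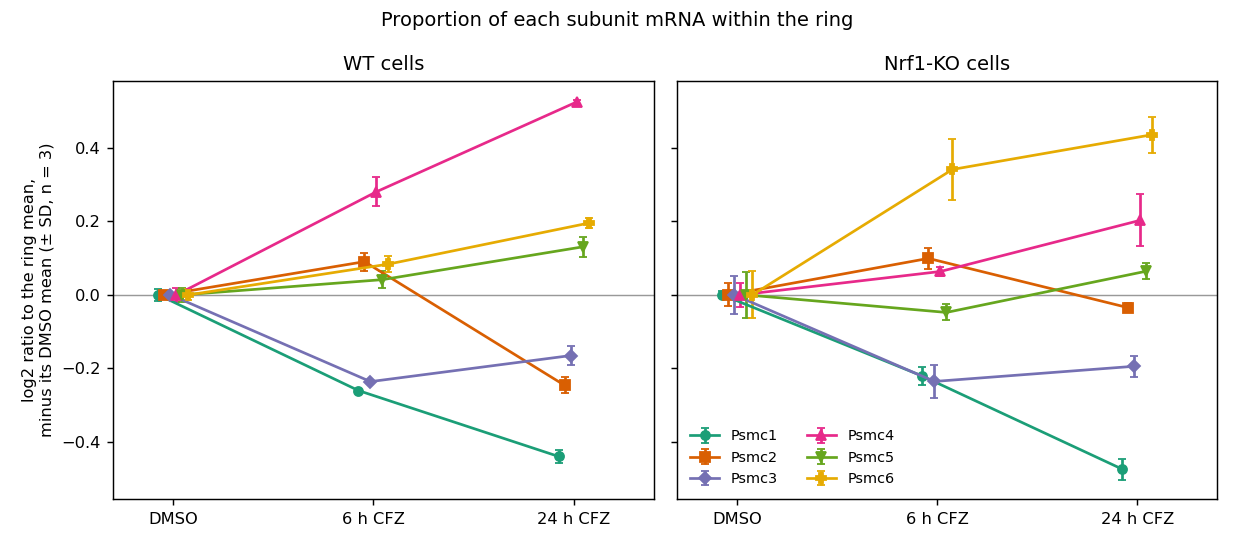
Log2 ratio of each ring subunit mRNA to the mean of the 6 in the same library, minus its mean in DMSO (vertical axis, mean ± SD, n = 3), in DMSO and after 6 h and 24 h of CFZ (horizontal axis) for WT (left) and Nrf1 KO cells (right). Psmc1 falls furthest in both lines, to -0.44 and -0.47, Psmc4 climbs to 0.52 in WT and Psmc6 to 0.44 in Nrf1 KO cells.

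Nrf1 KO and WT cells were compared in the same way within each treatment. The proportion of Psmc2 was higher in Nrf1 KO cells, by 0.17 on average (0.10 in DMSO, 0.11 at 6 h and 0.31 at 24 h), with an adjusted p of 0.0045 from the smallest p of 0.00025 that the exact permutation test can give here. Psmc5 was at -0.05 on average (adjusted p = 0.0242, exact permutation test), with 0.0034 in DMSO, -0.09 at 6 h and -0.06 at 24 h, and this call was lost without replicate 2 of WT DMSO (-0.05, adjusted p = 0.053) or replicate 2 of Nrf1 KO DMSO (-0.04, adjusted p = 0.0714). Psmc4 was at -0.09 (adjusted p = 0.0511, exact permutation test), from 0.09 in DMSO to -0.13 at 6 h and -0.23 at 24 h, and passed without replicate 2 of WT DMSO (adjusted p = 0.0478), replicate 2 of WT 6 h (0.0447) or replicate 1 of Nrf1 KO DMSO (0.0357). Psmc3 was at -0.02 (adjusted p = 0.126, exact permutation test) and passed without replicate 2 of Nrf1 KO DMSO (-0.03, adjusted p = 0.0298) or replicate 2 of Nrf1 KO 6 h (-0.03, adjusted p = 0.0246). For Psmc6 the treatments differed in sign, with -0.17 in DMSO, 0.09 at 6 h and 0.07 at 24 h, and for Psmc1 the average was -0.01.

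The other proteasome genes were described from lists of subunits and assembly factors, in the order of their place in the particle. Over all genes tested, 35.6% were called higher and 36.2% lower in WT cells at 6 h, and 43.2% and 40.5% at 24 h. In the interaction, 18.4% of all genes were called lower at 6 h and 30.0% at 24 h. The base subunits that are not ATPases are Psmd1 and Psmd2, which form scaffolds, and the ubiquitin receptors Psmd4 and Adrm1. All 4 rose in WT cells at both times, by a median of 1.53 and 1.74 log2, and all 4 had a lower response in Nrf1 KO cells, with median interactions of -1.18 at 6 h and -1.04 at 24 h. Psmd1 was at -1.41 ± 0.05 and -1.31 ± 0.05, and Adrm1 at -1.17 ± 0.06 and -0.68 ± 0.05. Of the 9 lid subunits, 8 rose in WT cells at both times and Shfm1, a small acidic subunit, fell (-0.11 and -0.18 log2). In the interaction 8 of the 9 were lower at 6 h (Shfm1 at -0.17, adjusted p = 0.0561, edgeR) and all 9 at 24 h, from -0.31 for Shfm1 to -1.50 for Psmd12. The calls of Shfm1 at 6 h depended on the libraries and the setting, since it passed without replicate 1 of WT DMSO, replicates 2 or 3 of WT 6 h or replicate 3 of Nrf1 KO 6 h, and also with no expression filter, with TMM set without proteasome genes, with the compared groups alone and with replicate number as a block (adjusted p = 0.0074 to 0.0467, edgeR). All 14 genes of the 20S core rose in WT cells at both times and had a lower response in Nrf1 KO cells, with median interactions of -1.10 and -1.07 and a range at 24 h from -0.69 (Psmb1) to -1.69 (Psmb3).

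Of the 4 chaperones that assemble the ring, 3 were among the rows analysed. Psmd5, which holds Psmc2 and Psmc1, rose in WT cells by 1.04 ± 0.04 log2 at 6 h and 0.67 ± 0.04 at 24 h, and fell in Nrf1 KO cells (-0.11 ± 0.04 and -0.85 ± 0.04). Its interaction at 24 h, -1.53 ± 0.06, was further from 0 than that of any ring member. Psmd9, which holds Psmc6 and Psmc3, was at 0.51 and 1.52 log2 in WT and 0.29 and 0.88 in Nrf1 KO cells, with an interaction of -0.64 at 24 h. Psmd10, which holds Psmc4 and Psmc5, was at 0.10 (adjusted p = 0.174, edgeR) and 0.17 ± 0.06 log2 in WT cells, and its interaction did not pass the test (0.07 and -0.16, adjusted p = 0.591 and 0.116, edgeR), except at 24 h, where it was -0.24 and was called without replicate 3 of Nrf1 KO 24 h (adjusted p = 0.00964, edgeR) and with library size alone (adjusted p = 0.0175, edgeR). In the interaction 2 of the 3 were called lower at each time, where 18.4% of all genes were called lower at 6 h and 30.0% at 24 h. At 6 h Psmd5 was the 1 gene called without replicate 2 or 3 of WT DMSO or of Nrf1 KO DMSO, replicate 3 of WT 6 h, or replicate 1 or 2 of Nrf1 KO 6 h. The same held with DESeq2, upper-quartile scaling or library size alone.

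The ring was also set beside 26 other AAA and AAA+ ATPases, motor proteins of the same superfamily that work on other substrates. In the interaction, 4 of them were higher and 10 lower at 6 h, and 8 higher and 12 lower at 24 h, where over all genes 19.8% were called higher and 18.4% lower at 6 h, and 29.7% and 30.0% at 24 h. Their medians were -0.07 and -0.13, against 0.02 and 0.0049 over all genes. At 24 h they ran from -1.22 ± 0.08 for Atad3a, of the mitochondrial membrane, to 0.52 ± 0.06 for Spast, which severs microtubules. Vcp (p97), the motor that extracts proteins from the endoplasmic reticulum membrane, was lowest of the 26 at 6 h, at -1.10, and was named after its value had been seen. In WT cells 16 of the 26 rose and 6 fell at 6 h, and 18 rose and 7 fell at 24 h, against 35.6% and 36.2% of all genes at 6 h and 43.2% and 40.5% at 24 h.

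**Figure D4:**
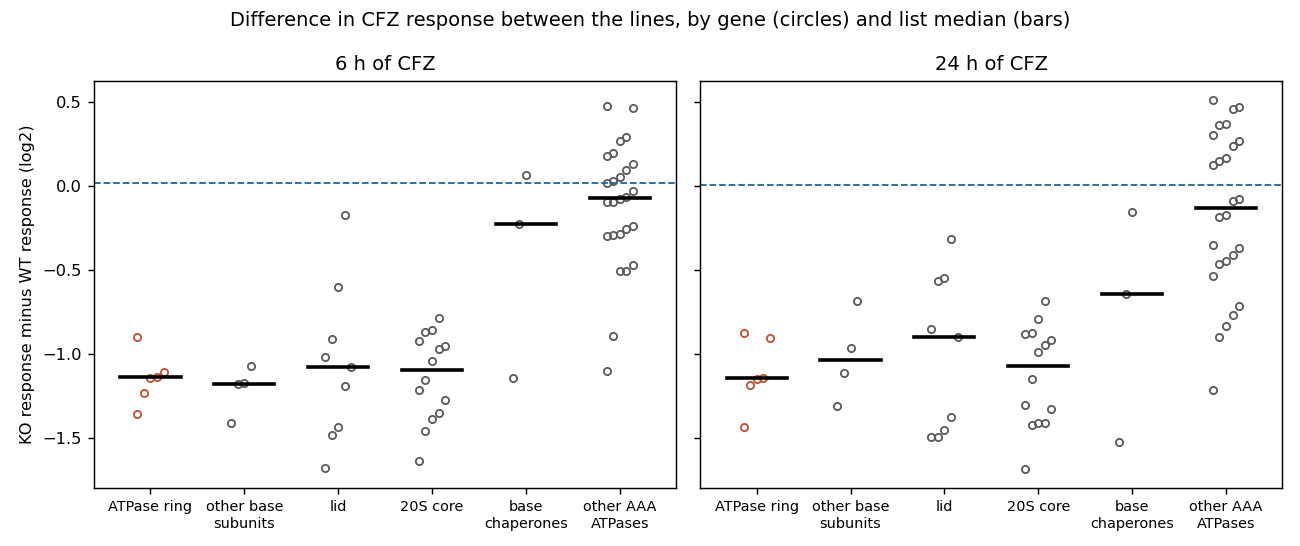
Difference in the CFZ response between the lines (vertical axis, log2 response of Nrf1 KO minus WT cells) for each gene (circles) of the ring and 5 other lists (horizontal axis) at 6 h (left) and 24 h (right), with the list median as a black bar and the median of all genes tested as a dashed line. Each proteasome subunit lies below 0, while the 26 other AAA ATPases lie on both sides, from -1.22 to 0.52 at 24 h.

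The members followed each other closely over the 18 libraries, with Pearson's r between pairs from 0.923 (Psmc1 and Psmc6) to 0.994 (Psmc4 and Psmc5) on the log2 CPM scale. Psmc4 and Psmc5 are held by the same chaperone, but the other such pairs were not the closest. Psmc1 and Psmc2 were at 0.961 and Psmc3 and Psmc6 at 0.960, while Psmc1 was closest to Psmc3 (0.983) and Psmc6 to Psmc4 (0.988). Against the mean of the other 5 members, r was highest for Psmc5 (0.997) and lowest for Psmc1 (0.961). These values describe libraries that share conditions and fall into groups, and no test was made of them. Among 9041 other genes with a mean of at least 10 CPM, the 10 whose pattern was most like the mean of the ring had r from 0.992 to 0.9985. Of these 10, 5 belong to the proteasome (Psmd1, Psmb2, Psma3, Psmd3 and Psma7), and Psmd1 came first. The other 5 were Skiv2l2, an RNA helicase of the nuclear exosome, Fam219a, Nsfl1c (p47), a cofactor of Vcp, Cops5, a subunit of the COP9 signalosome, and Mocos, a sulfurase of the molybdenum cofactor. They differed in the size of the response: in WT cells at 24 h Fam219a was at 2.77 ± 0.06 log2, Mocos at 2.06 ± 0.08, Nsfl1c at 1.60 ± 0.03, Cops5 at 1.03 ± 0.04 and Skiv2l2 at 0.55 ± 0.03. In Nrf1 KO cells at 24 h the same genes were at 0.88, 0.54, 0.58, 0.13 and 0.21, each called higher. The choice of these genes depends on the measure, as 3 of the 10 were among the first 10 by Spearman's rho and 8 by r over the 6 group means. Proteasome genes were 4 of the first 10 by rho and 3 by r over group means, and 30 of the 9041 genes belong to the proteasome lists.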

How the data were processed

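RNA of WT and Nrf1 KO NIH-3T3 cells was extracted with an RNeasy kit, made into stranded mRNA libraries and sequenced in paired reads by the authors, who processed the reads with RNA Express (STAR and DESeq2 in the submitters' processing notes). The authors deposited 1 table of raw read counts per gene symbol. Versions, genome build, annotation and use of strand are not given in the sources used here. Columns were matched to samples by the names in the labels.

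The 6 members and the lists were chosen with earlier results of these data known. Counts were tested with edgeR 4.0.16 (R 4.3.3, limma 3.58.1): filterByExpr with a minimum count of 10 and a minimum total of 15, TMM scaling, 1 quasi-likelihood model of 6 groups over 18 libraries and Benjamini-Hochberg adjustment over 11762 genes. The SE is the size of the log2 fold change divided by the square root of F. CFZ was compared with DMSO and 24 h with 6 h within each line, and the lines within each treatment and by the interaction. Proportions were tested by exact permutation within strata, 8000 for line and 400 for CFZ, with adjustment over 18 tests. Likeness was Pearson's r of log2 CPM (prior count 2) with the mean of the members. The text names the members, Nfe2l1 and the 10 genes most like the ring. It also names the genes with the lowest and highest interaction at 24 h in each list other than the markers. Beyond that rule it names Shfm1 at 6 h, Vcp, Psmd2, Psmd4 and Psmd9. Of the markers it names Lum, Pdgfra, Epcam, Cd3e, Cdh1, Cd68, Cdh5, Ptprc and Myh3, also beyond that rule.

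Gene models came from GENCODE M21 and promoters from RefSeq. Paaf1, the fourth ring chaperone, and the promoter of Psmc3 were not analysed here. Alternatives were DESeq2 1.42.0, upper-quartile scaling, library size alone, TMM without proteasome genes, no expression filter, a mean count of at least 10, the compared groups alone, a block for replicate number, leaving out single libraries, a minimum fold of 1.5 and other measures of proportion and likeness. The scripts were tested on simulated data. Replicates of a group had Pearson's r of 0.994 to 0.997 and a chi-square per degree of freedom of 1.44 to 8.47, which is above sampling noise for every pair. With a common biological coefficient of variation of 3.13%, small changes can be called.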

Additional observations from a re-analysis of the deposited data

Results flagged for a closer look

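By edgeR's test of the interaction, each member of the ring responded differently to CFZ in the lines, and these 12 values were singled out for that reason. At 6 h the Nrf1 KO response was below that of WT by the following log2 differences: -1.11 for Psmc1, -1.14 for Psmc2, -1.14 for Psmc3, -1.36 for Psmc4, -1.24 for Psmc5 and -0.90 for Psmc6. At 24 h the log2 differences were -1.15 for Psmc1, -0.91 for Psmc2, -1.14 for Psmc3, -1.44 for Psmc4, -1.18 for Psmc5 and -0.88 for Psmc6. Over all genes tested, 18.4% were called lower by this test at 6 h and 30.0% at 24 h. In the step from 6 h to 24 h the lines differed for Psmc2, by 0.23 log2. This was 16.7% of the members, against 20.7% of all genes called higher. This last comparison was added after the data had been seen, and its adjusted p ran from 2.41e-05 to 0.0397 over its 20 alternatives. With 3 libraries in each group, single libraries were not tested for standing apart.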

How the results depend on the processing

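For the members, the WT response to CFZ, the difference between the lines in each treatment and the interactions at 6 h and 24 h kept their direction and their side of the threshold in all 660 alternative values of these 42 results, as judged by the adjusted p with no minimum fold. Results near 0 moved. In Nrf1 KO cells at 6 h, Psmc1 and Psmc3 were at -0.0011 and -0.0099 log2 with DESeq2, -0.055 and -0.065 after upper-quartile scaling, -0.093 and -0.103 by library size alone (2 members called lower), -0.0016 and -0.011 with TMM factors set without proteasome genes and -0.031 and -0.040 with no filter. Psmc3 was at -0.032 to 0.043 with single libraries left out. Psmc2 between 24 h and 6 h in Nrf1 KO cells was at -0.015 after upper-quartile scaling, -0.051 by library size alone and -0.031 to 0.038 with single libraries left out. Nrf1 KO at 24 h against WT DMSO gave -0.022 for Psmc2, -0.017 for Psmc5 and -0.019 for the median after upper-quartile scaling. Library size alone gave -0.062, -0.057 and -0.060. Under that scaling the median of all genes shifted from -0.02 to -0.15 in WT cells at 6 h and from 0.03 to -0.15 in Nrf1 KO cells at 24 h, where Psmc3 was at 0.02 and was not called. Members called lower between 6 h and 24 h in WT cells were 2 with upper-quartile scaling, with TMM set without proteasome genes and with the compared groups alone, and 1 to 2 with single libraries left out. With single libraries left out, 0 to 1 were called lower in Nrf1 KO cells at 24 h against DMSO and against 6 h, and 2 to 4 higher in Nrf1 KO 24 h against WT DMSO. With a fold of 1.5, 2 members were called higher in Nrf1 KO cells at 24 h, in place of 0. In the added contrast of the lines from 6 h to 24 h, 2 members were called lower with library size alone, where Psmc5 was at -0.046 and Psmc6 at -0.079. There Psmc3 was at 0.023 with TMM set without proteasome genes, 0.026 with no filter, 0.031 with the compared groups alone and -0.034 to 0.047 with single libraries left out, Psmc1 at -0.053 to 0.015 and Psmc6 at -0.011 to 0.099. The interaction of Psmd10 at 6 h was at -0.0031 to 0.10 and the proportions of Psmc5 at 6 h and of Psmc6 between the lines at -0.020 to 0.011 and -0.018 to 0.0082 with single libraries left out. By Spearman's rho 3 of the 10 genes most like the ring were shared. The cause of these changes was not tested.

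Replicate numbers are shared by the labels of all groups, but libraries with the same number were not seen to deviate together (mean r of 0.014 over 45 pairs, none over 0.1, and 8 of 18 libraries closest to their own number). The labels do not say what the number stands for, and a low r cannot show that nothing else was shared. When replicate number entered as a block, the members called were 6 higher in WT cells at 6 h, as without it, and no call of a member changed. Among the other proteasome genes the block added the call of Shfm1 in the interaction at 6 h (-0.17, adjusted p = 0.0467).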
